A study of Mus musculus with 36 samples.

Results

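The genes described here are 7 claudins and 3 further components of epithelial cell junctions, read out by RNA sequencing in E18.5 mouse intestine. The members are a list of gene names: Cldn2, Cldn3, Cldn4, Cldn7, Cldn8, Cldn15, Cldn23, Ocln (occludin), Tjp1 (zonula occludens 1) and Cdh1 (E-cadherin). They are 10 of the 52636 genes listed in the files, of which 35326 had a read in at least 1 intestine library. Each of the 10 passed the filter on low counts in both sets of embryos, with between 282 reads (Cldn23) and 21622 reads (Cdh1) in a library.

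The study asked how impaired caspase-8, with or without cFLIP (encoded by Cflar), affects the mouse, and sequenced whole intestines of C57BL/6N embryos in 30 libraries, 3 embryos for each of 10 groups. In the D387A set, Casp8 D387A KI embryos (1xDA) carried caspase-8 that cannot be cleaved between its catalytic subunits. These were compared as 1xDA embryos with no other deletion, as 1xDA Cflar Mlkl embryos that also lacked Cflar and Mlkl, as 1xDA Cflar Mlkl Casp1 embryos that further lacked Casp1, and as 1xDA Cflar Mlkl Casp1 Ifnar1 and 1xDA Cflar Mlkl Casp1 Fadd embryos that lacked Ifnar1 or Fadd besides. In the C362A set, Casp8 C362A KI embryos carried caspase-8 without its catalytic cysteine, as C362A Mlkl, C362A Mlkl Casp1 and C362A Cflar Mlkl embryos. Each set had its own Mlkl-/- embryos as the reference, so every group but 1xDA lacked Mlkl (MLKL executes necroptosis), and the 1xDA embryos differ from their reference at Mlkl as well as at Casp8. The labels of the reference embryos name Mlkl KO only. Whether some carried 1 mutant copy of Casp8 or Cflar cannot be read from them. The alleles act in all cells of the embryo, and whole intestine mixes epithelium with muscle, stroma and immune cells. The study calls its Mlkl-/- controls littermates, but the labels do not tie embryos to a litter, so p-values measure the spread between these embryos. Sample titles of the D387A set start with a number whose meaning is not given. The Mlkl-/- and 1xDA Cflar Mlkl embryos share that number and each other D387A group has its own, so in the 1xDA, Casp1, Ifnar1 and Fadd comparisons genotype and whatever the number marks cannot be told apart.

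Reads counted on genes ran from 17943524 to 27721024 per library (median 21411893) in the D387A set and from 21757868 to 31052238 (median 26901265) in the C362A set. They were 84.2% to 88% of the total behind the deposited RPKM in the D387A set and 75.6% to 83.9% in the C362A set. The deleted genes Casp1 and Fadd read low where the labels say they should: Casp1 was at most 0.212 CPM (the gene's reads scaled to the size of the library) in Casp1-/- groups against 42.6 to 124 elsewhere, and Fadd was 0.659 to 1.01 CPM against 25.5 to 50.5. Ifnar1 fell to 33.2 to 37.9 CPM against 76.1 to 103, whereas Cflar and Mlkl transcripts were read in embryos lacking those genes and do not check the labels. The third 1xDA Cflar Mlkl Casp1 embryo stood apart from its group in several readouts below, so results that rest on it are given with and without it. Epithelial transcripts were read in every group: the 10 pan-epithelial genes (Epcam, keratins and others) summed to between 2781 and 5039 CPM.

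Claudins are four-pass membrane proteins that polymerise into tight junction strands and set which ions and solutes cross between epithelial cells. Some, such as claudin-3 and claudin-4, tighten the barrier, whereas claudin-2 and claudin-15 form cation pores that the small intestine uses for sodium-dependent nutrient uptake. Occludin sits in the same strands, zonula occludens 1 ties them to actin, and E-cadherin holds the adherens junction beneath them. In the gut, inflammatory cytokines are known to alter the levels of several of these proteins.

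Levels are given as RPKM, which is CPM divided by the exonic length in kilobases, on libraries scaled by TMM (edgeR's scaling, which balances most genes between libraries), so that genes of different length can be compared. Differences are log2 fold changes with their standard error (SE) from edgeR's quasi-likelihood test on counts, fitted over all genes of a set. A gene is said to have risen or fallen where its log2 fold change passed 1 in size and its adjusted p was under 0.05, with p-values adjusted by the Benjamini-Hochberg method over all genes tested. In the Mlkl-/- embryos of the D387A set, the order of the mean levels was Cldn7 (354 RPKM), Cldn2 (146), Cdh1 (121), Cldn3 (74.4), Cldn15 (44.3), Cldn8 (32.9), Cldn4 (26.4), Ocln (18.6), Tjp1 (16.3) and Cldn23 (11.7). No neighbours in that order overlapped between embryos. In the Mlkl-/- embryos of the C362A set the order was alike except that Cldn8 stood before Cldn15, and those 2 genes, Cldn15 and Cldn4, and Ocln and Tjp1 overlapped.

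**Figure D1:**
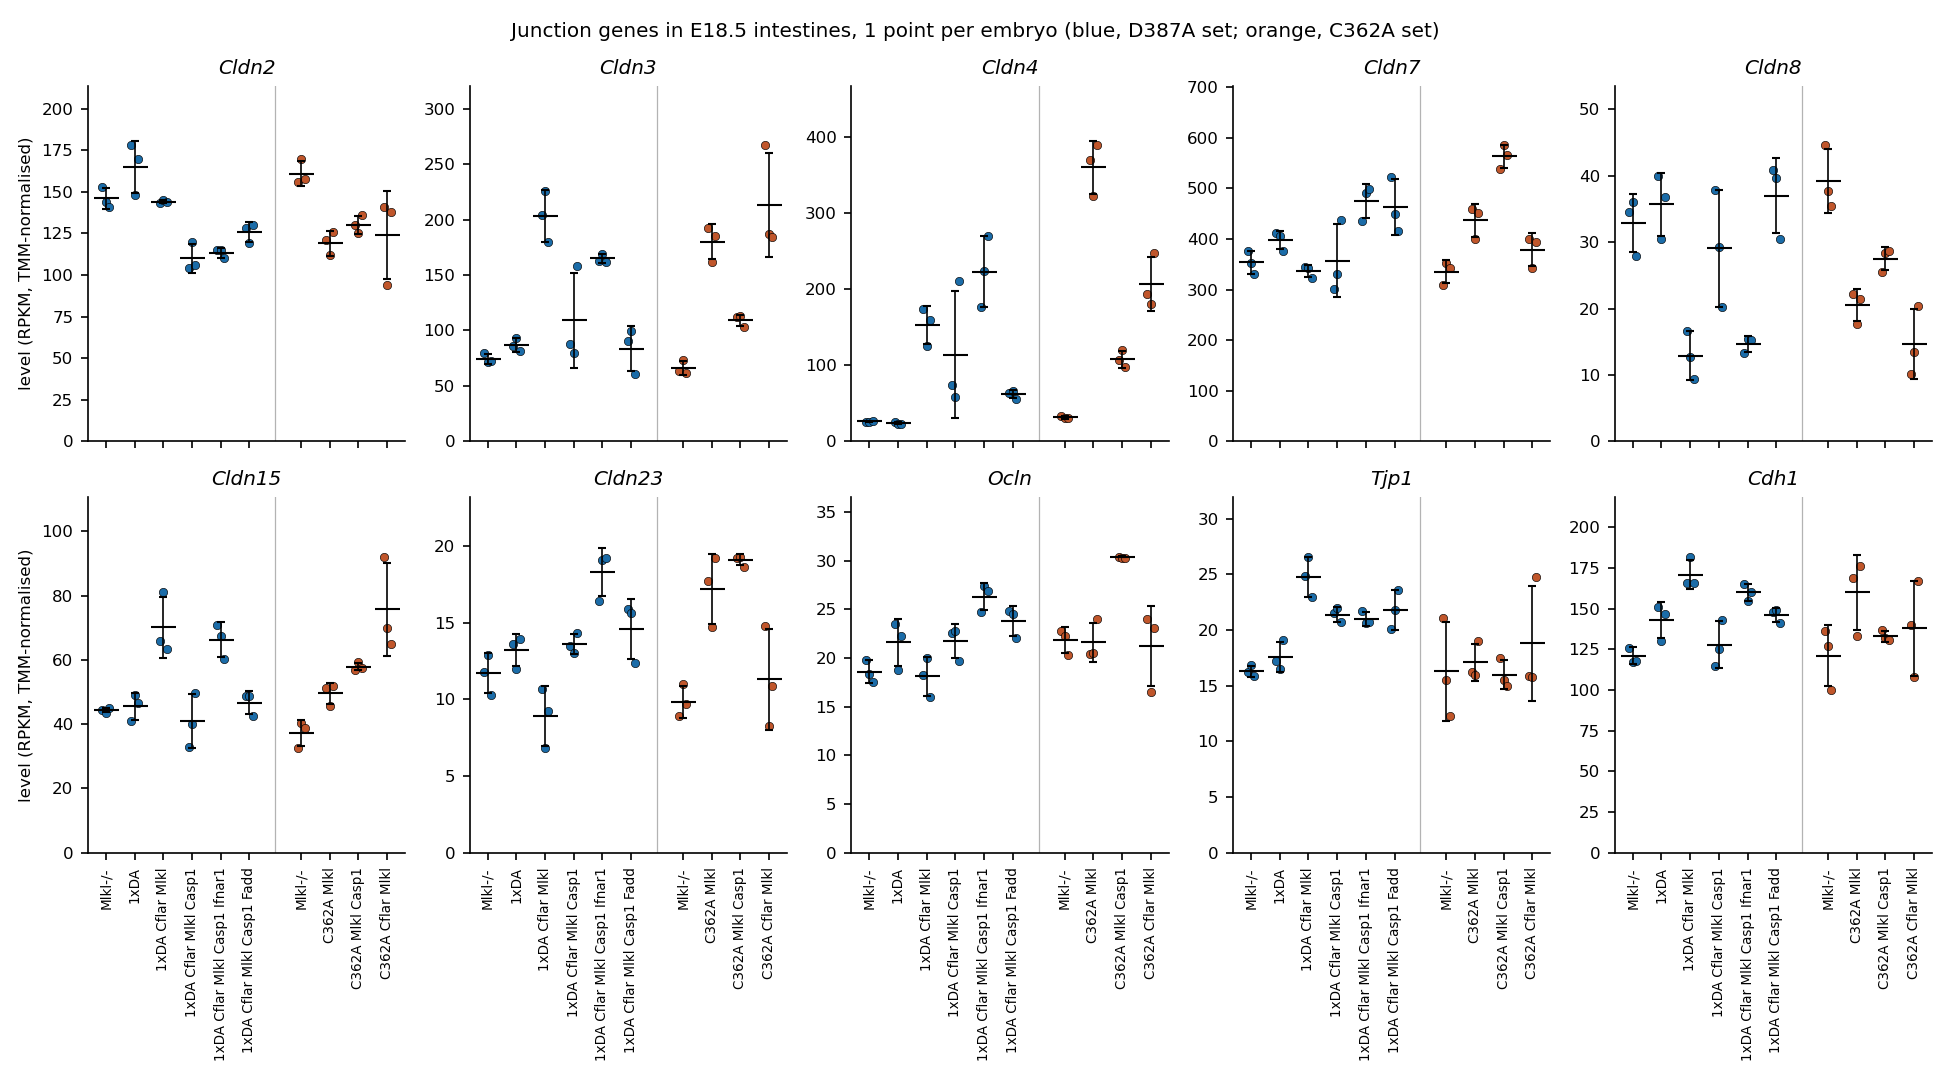
Levels of the 10 members in each embryo. The y axis of each panel is RPKM on TMM-scaled libraries, points are embryos, long ticks and bars are group means and SD, and groups run from the D387A set to the C362A set; Cldn4 sits at 23.2 to 33.7 RPKM in the Mlkl-/- and 1xDA groups and at 56.3 or more in each of the other groups.

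The claudins changed unequally in 1xDA embryos without Cflar and in embryos with inactive caspase-8, with or without Cflar: Cldn4 and Cldn3 rose in all 3 comparisons with Mlkl-/- embryos, Cldn8 fell in both groups that lacked Cflar, and Ocln passed neither threshold in any of the 3 on the TMM scale. In C362A Mlkl embryos Cldn8 was lower but under the fold threshold. In 1xDA Cflar Mlkl embryos 3 of the 10 members were called, against 22.2% of the 18360 genes tested. The 2 that rose (Cldn4 and Cldn3) compare with a background of 9.4% of genes called higher, and the 1 that fell (Cldn8) with 12.8% called lower. At any fold, 7 of 10 members had an adjusted p under 0.05 (59.4% of all genes), and in 6 of 10 the embryos of the 2 groups did not overlap (68.1% of all genes). The median log2 fold change of the members was 0.24, and that of all genes tested was −0.01.

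In C362A Mlkl embryos 2 members were called, both higher, where 18% of 19408 genes were called, 10.4% higher and 7.55% lower. There, 7 of 10 passed the p threshold at any fold (42.1% of all genes), and 7 of 10 did not overlap with Mlkl-/- embryos (53.6%). In C362A Cflar Mlkl embryos 4 members were called, Cldn4, Cldn3 and Cldn15 higher and Cldn8 lower, where 24.6% of genes were called, 13.4% higher and 11.2% lower. At any fold 4 of 10 passed the p threshold (52.8% of all genes), and 5 of 10 did not overlap (55%). The members' medians were 0.39 and 0.19 in these comparisons against 0.02 and 0.03 over all genes. The comparisons within a set share their Mlkl-/- embryos and are not independent of each other.

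**Figure D2:**
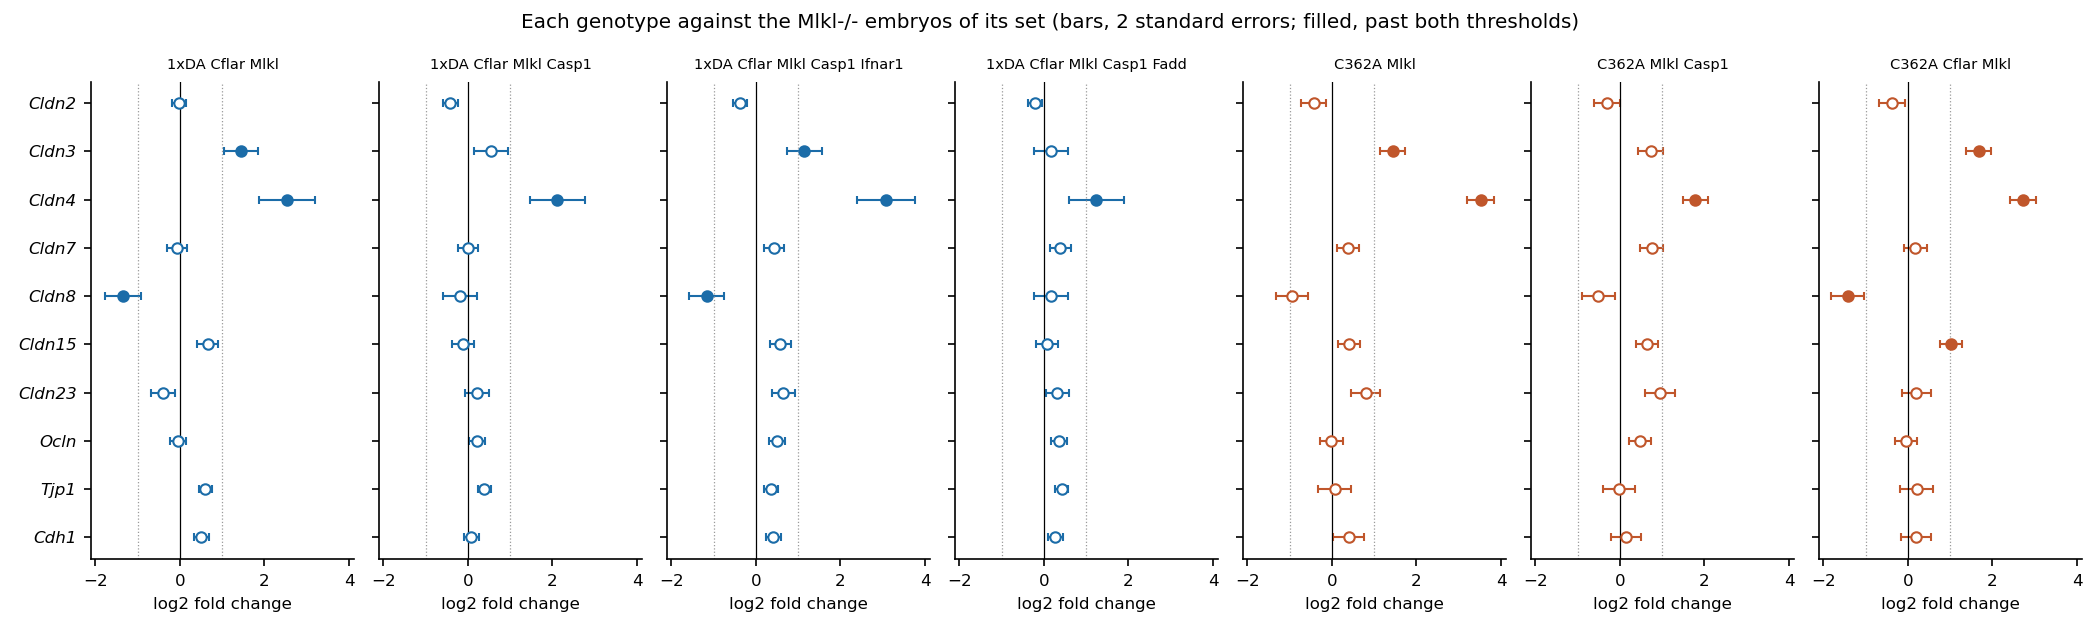
Log2 fold changes of the 10 members against the Mlkl-/- embryos of the same set. Each panel is 1 comparison, the x axis is the log2 fold change, bars are 2 SE to either side, and filled points passed both thresholds; the Cldn4 point lies farthest to the right in each of the 7 comparisons plotted, and 1xDA embryos, where Cldn4 was at −0.13, are not plotted.

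Cldn4, a claudin that seals the paracellular route, moved most. It lies on chromosome 5 (GRCm38, 134945119 to 134946934, minus strand). In Mlkl-/- embryos of the D387A set it was at 26.1, 25.9 and 27.3 RPKM, and in 1xDA Cflar Mlkl embryos at 174, 125 and 159. The lowest of the latter was several times the highest of the former, and the log2 fold change was 2.53 ± 0.33 (SE, adjusted p = 4.42e-06, higher in 3 of 3 embryos). In the C362A set the Mlkl-/- embryos were at 33.7, 30.2 and 30.7 RPKM and the C362A Mlkl embryos at 370, 322 and 389, a log2 fold change of 3.52 ± 0.16 (adjusted p = 9.82e-10). This was the highest level of Cldn4 in any group, and it placed the gene next to Cldn7 at the head of the members. The C362A Cflar Mlkl embryos were at 194, 180 and 247 RPKM, with a log2 fold change of 2.72 ± 0.15 (adjusted p = 7.02e-09).

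Cldn3, also a sealing claudin, lies 39279 bases from Cldn4 with no other protein-coding gene between them (chromosome 5, 134986214 to 134987472, plus strand). It shares 40 exonic bases with an antisense gene, and the strand of the counting is not given, so those bases cannot be assigned. Its level was 79.4, 71.8 and 72.1 RPKM in Mlkl-/- embryos and 204, 226 and 180 in 1xDA Cflar Mlkl embryos, a log2 fold change of 1.45 ± 0.21 (SE, adjusted p = 9.98e-06). Among C362A set embryos it was at 63.4, 73.2 and 61.8 RPKM in Mlkl-/- embryos, at 192, 162 and 185 in C362A Mlkl embryos and at 267, 187 and 184 in C362A Cflar Mlkl embryos. No embryo of the mutant groups overlapped with the reference, and the log2 fold changes were 1.44 ± 0.15 (adjusted p = 2.14e-06) and 1.68 ± 0.15 (adjusted p = 3.63e-07).

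Because these neighbours rose together, their promoters are shown, from RefSeq on GRCm38.p6: 300 bases each, 250 before and 50 after the start of the transcript, written 5′ to 3′ on the gene's own strand, at chr5:134946885-134947184 for Cldn4 (minus strand) and chr5:134985964-134986263 for Cldn3 (plus strand). Capitals mark the letters that matched a searched motif on either strand.
Cldn4: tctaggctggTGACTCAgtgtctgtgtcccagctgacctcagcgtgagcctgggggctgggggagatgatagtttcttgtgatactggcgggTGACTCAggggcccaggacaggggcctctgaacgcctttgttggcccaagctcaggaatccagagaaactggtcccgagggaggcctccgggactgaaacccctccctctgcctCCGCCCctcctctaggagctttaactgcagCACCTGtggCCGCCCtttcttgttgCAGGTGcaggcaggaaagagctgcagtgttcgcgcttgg
Cldn3: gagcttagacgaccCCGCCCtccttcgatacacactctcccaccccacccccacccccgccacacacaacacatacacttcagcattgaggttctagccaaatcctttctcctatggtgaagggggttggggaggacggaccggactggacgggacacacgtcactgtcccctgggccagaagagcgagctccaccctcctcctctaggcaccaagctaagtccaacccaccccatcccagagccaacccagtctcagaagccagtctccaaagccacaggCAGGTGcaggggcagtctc
The motifs searched were AP-1 (TGANTCA), NF-kB (GGANTTTCC), STAT (TTCNNNGAA), IRF (GAAANNGAA), GATA factors (letters AGATAA), CDX (TTTATNG), HNF4 (CAAAGNCCA), the GC box (GGGCGG) and the Snail E-box (CAGGTG). The Cldn4 window held AP-1 letters at 2 places, starting at −240 and −158 bases from the transcript start, which 7.81% of the 32851 promoter windows hold at least once. It also held the GC box at 2 places and the E-box at 2 places, and the Cldn3 window held each once (35.7% and 20.2% of all windows). The NF-kB letters, present in 1.25% of windows, were in neither, nor were those of STAT (8.3%), IRF (8.56%), GATA (11.2%), CDX (10.9%) or HNF4 (1.98%). Of the 10 members, 7 had a window in the table, with 9 windows among them, and across these the AP-1 letters were in those of Cldn4 and Cldn15, the STAT and IRF letters in those of Cldn7, and the GATA, CDX, HNF4 and NF-kB letters in none. The GC box was in 7 of 9 windows, and the E-box in 5 of 9, those of Cldn4, Cldn3, Cldn7 and Ocln. The median GC content of the 9 was 61% against 52.7% over all windows. These matches describe letters in the windows and say nothing of binding.

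Cldn8, a barrier claudin that in other epithelia works together with claudin-4, moved the other way (chromosome 16, 88560828 to 88563183, minus strand). It was at 34.6, 36.1 and 27.9 RPKM in Mlkl-/- embryos of the D387A set and at 16.7, 12.7 and 9.4 in 1xDA Cflar Mlkl embryos. All 3 mutant embryos lay below the reference, with a log2 fold change of −1.35 ± 0.21 (SE, adjusted p = 2.9e-05). In the C362A set the Mlkl-/- embryos were at 44.6, 37.7 and 35.4 RPKM, the C362A Mlkl embryos at 22.2, 17.7 and 21.5, and the C362A Cflar Mlkl embryos at 10.1, 13.5 and 20.4. Cldn8 fell in C362A Cflar Mlkl embryos (−1.42 ± 0.20, adjusted p = 3.09e-05), and in C362A Mlkl embryos it passed the p threshold but not the fold (−0.94 ± 0.19, adjusted p = 0.00121). Without the third Mlkl-/- embryo it was called there too (−1.02), and likewise without the first C362A Mlkl embryo. The ratio of Cldn4 to Cldn8, per length, was 0.754, 0.717 and 0.976 in Mlkl-/- embryos of the D387A set and 10.4, 9.81 and 16.9 in 1xDA Cflar Mlkl embryos.

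Of the pore-forming claudins, Cldn2 (X chromosome, 139800828 to 139811386) was not called in any comparison. It was at 153, 144 and 141 RPKM in Mlkl-/- embryos and at 143, 145 and 144 in 1xDA Cflar Mlkl embryos. The log2 fold change was −0.02, and the interval of 2 SE ran from −0.19 to 0.15. With library totals as the scale it was 0.20 (adjusted p = 0.0362). In 6 of the 7 other groups Cldn2 lay below Mlkl-/- embryos by less than the fold threshold and without overlap, and in 1xDA embryos it was at 178, 148 and 170 RPKM (0.18, adjusted p = 0.966). It was at 121, 112 and 126 RPKM in C362A Mlkl and 141, 93.8 and 138 in C362A Cflar Mlkl embryos against 156, 170 and 158, without overlap (−0.43 ± 0.15, adjusted p = 0.0327, and −0.37 ± 0.15, adjusted p = 0.0508). In 1xDA Cflar Mlkl Casp1 embryos it was at 104, 120 and 106 RPKM and with Ifnar1 loss at 115, 115 and 110, also without overlap (−0.41 ± 0.08, adjusted p = 0.00239, and −0.37 ± 0.08, adjusted p = 0.00165). Cldn15 (chromosome 5, 136966616 to 136975858) was at 44.5, 43.6 and 44.9 RPKM against 65.8, 81.1 and 63.5 in 1xDA Cflar Mlkl embryos. The groups did not overlap, but the log2 fold change of 0.66 ± 0.13 (SE, adjusted p = 0.000231) was under the fold threshold. In C362A Cflar Mlkl embryos Cldn15 was at 92.1, 70 and 65 RPKM against 32.6, 40.4 and 38.8 in Mlkl-/- embryos. It rose there by 1.02 ± 0.13 on the log2 scale (adjusted p = 1.64e-05). That call was lost without the first Mlkl-/- embryo of the set (log2 fold change 0.94) or without the first C362A Cflar Mlkl embryo (0.86).

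Cldn7, the most abundant claudin in each group and a partner of EpCAM at the cell membrane, was at 377, 353 and 331 RPKM in Mlkl-/- embryos and at 344, 342 and 322 in 1xDA Cflar Mlkl embryos (chromosome 11, 69964779 to 69967885). The groups overlapped, with an interval of 2 SE from −0.32 to 0.17. In C362A Mlkl embryos it was at 459, 400 and 452 RPKM against 309, 352 and 343, a log2 fold change of 0.38 ± 0.13 (adjusted p = 0.0319), which passed the p threshold only.

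Cldn23, the scarcest member in both reference groups and a less studied claudin of surface epithelium, differed between 1xDA Cflar Mlkl and C362A Mlkl embryos in its change from the reference (chromosome 8, 35824712 to 35826559). It was at 11.8, 12.9 and 10.3 RPKM in Mlkl-/- embryos and at 10.7, 6.82 and 9.24 in 1xDA Cflar Mlkl embryos, which overlapped. Its C362A set levels were 8.92, 11 and 9.67 RPKM in Mlkl-/- embryos and 17.7, 14.7 and 19.2 in C362A Mlkl embryos, which did not overlap. The log2 fold changes were −0.39 ± 0.14 and 0.80 ± 0.17, and their difference was −1.19 ± 0.23 (SE, adjusted p = 0.000636). Against this, 7.46% of the 19643 genes tested were called for the same difference, and Cldn23 was the 1 member of 10, also at any fold (18.1% of all genes). The 2 groups also differ at Cflar, which 1xDA Cflar Mlkl embryos lack and C362A Mlkl embryos keep, so mutation, Cflar and set cannot be told apart here. In C362A Cflar Mlkl embryos, which lack Cflar too, Cldn23 was at 14.8, 8.26 and 10.9 RPKM, overlapping with Mlkl-/- embryos (0.20 ± 0.17, adjusted p = 0.364), and the difference of this change from that in 1xDA Cflar Mlkl embryos was not tested. Within the C362A set, Cldn23 was lower in embryos without Cflar than with it by a log2 fold change of −0.61 ± 0.17 (adjusted p = 0.0249), and these groups overlapped.

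None of occludin, zonula occludens 1 and E-cadherin was called in the 3 comparisons. Ocln (chromosome 13, 100496507 to 100552718) was at 19.8, 18.4 and 17.5 RPKM in Mlkl-/- embryos and at 18.3, 20 and 16 in 1xDA Cflar Mlkl embryos, with an interval of 2 SE from −0.23 to 0.16. Its intervals in C362A Mlkl and C362A Cflar Mlkl embryos were from −0.27 to 0.25 and from −0.30 to 0.22. Tjp1 (chromosome 7, 65296165 to 65527781) was at 16.2, 16.9 and 15.9 RPKM against 24.9, 26.6 and 23 in 1xDA Cflar Mlkl embryos. These did not overlap, and the log2 fold change was 0.60 ± 0.08 (SE, adjusted p = 3.49e-06). Cdh1 (chromosome 8, 106603351 to 106670246) was at 126, 117 and 118 RPKM against 166, 182 and 166, a log2 fold change of 0.51 ± 0.09 (adjusted p = 0.000103). Neither passed the fold threshold, and in the 2 C362A comparisons neither passed the p threshold. The transcriptional repressors of Cdh1 (Snai1, Snai2, Twist1, Zeb1 and Zeb2) held no gene called by edgeR among 5 tested in any of the 3 comparisons, and 1, 0 and 0 of them had an unadjusted p under 0.05. The shares of all genes at that unadjusted p were 63.2%, 49.4% and 58%.

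In 1xDA embryos with Cflar and Mlkl intact, no member was called by edgeR, DESeq2 or limma-voom, and 0.00545% of all genes were called. At an unadjusted p under 0.05 there were 3 members (Cldn2, Ocln and Cdh1) of 10, against 5.02% of all genes, the largest difference being Cdh1 at 0.24 ± 0.09 (adjusted p = 0.96). Cldn4 was at 25.7, 23.3 and 23.2 RPKM, with an interval of 2 SE for the log2 fold change from −0.78 to 0.51, and Cldn8 was at 39.9, 30.5 and 36.8 RPKM, with an interval from −0.29 to 0.53.

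With Casp1 deleted in the C362A set, Cldn4 fell to a level between those of C362A Mlkl and Mlkl-/- embryos. C362A Mlkl Casp1 embryos were at 107, 120 and 97.3 RPKM, below all C362A Mlkl embryos and above all Mlkl-/- embryos. Cldn4 fell by 1.74 on the log2 scale with Casp1 loss (SE 0.15, adjusted p = 1.14e-06), the 1 member called where 11.3% of genes were called. Against Mlkl-/- embryos it was still higher, by 1.78 ± 0.15 (adjusted p = 6.37e-07), again the 1 member called where 10.5% of genes were. Cldn3 was at 112, 113 and 103 RPKM with Casp1 loss, between the other groups, and the difference from C362A Mlkl embryos was −0.71 ± 0.14 (adjusted p = 0.00181), under the fold threshold. Cell markers moved with Casp1 loss as well. Of 9 enterocyte markers 7 rose, from a sum of 15066 to 18926 CPM to 46805 to 57567. Of 6 leukocyte markers 4 fell, from a sum of at least 575 CPM to at most 414, and of 6 cytokines tested 5 fell, from 72.4 to 79.5 CPM to 4.9 to 8.32. Of 6 goblet markers Muc2 and Clca1 fell. Their part in the Cldn4 level was not tested.

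In the D387A set the 1xDA Cflar Mlkl Casp1 embryos did not form a tight group. Cldn4 was at 73.6, 58.8 and 211 RPKM, Cldn3 at 88.2, 79.9 and 158, and Cldn8 at 37.8, 29.2 and 20.2. The third embryo lay above every 1xDA Cflar Mlkl embryo in Cldn4, and between those and the other Casp1-deleted embryos in Cldn3 and Cldn8. With all embryos, Casp1 loss gave 1 called member where 13.4% of genes were called: Cldn8 rose by 1.17 ± 0.21 on the log2 scale (SE, adjusted p = 0.00021), a call lost without the third 1xDA Cflar Mlkl embryo (0.98) or the first Casp1-deleted embryo (0.94). Cldn4 differed by −0.42 ± 0.31 (adjusted p = 0.293). Without the third Casp1-deleted embryo 3 members were called, where 15.8% of genes were: Cldn3 (−1.27, adjusted p = 1.86e-06), Cldn4 (−1.20, adjusted p = 5.73e-06) and Cldn8 (1.37, adjusted p = 8.88e-06). With Casp1 loss 8 of 9 enterocyte markers rose as well, from a sum of 2039 to 3467 CPM to 19712 to 26946. Of 5 crypt and progenitor markers 3 fell (Lgr5, Ascl2 and Olfm4). Smooth muscle markers summed to 4593 to 4966 CPM against 7063 to 8845 in embryos that kept Casp1. Of 6 leukocyte markers S100a8, S100a9 and Itgam fell and Csf1r rose, of 6 goblet markers Muc2 fell, and of 3 cytokines tested Il6 and Il1b fell. The part of these shifts in the member levels was not tested. Against Mlkl-/- embryos, Cldn4 was the 1 member called in 1xDA Cflar Mlkl Casp1 embryos, where 4.34% of genes were called. Its log2 fold change was 2.12 ± 0.33 (adjusted p = 0.000337) with the third embryo and 1.33 ± 0.15 (adjusted p = 1.88e-05) without it, when 3.19% of genes were called.

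The third embryo also differed in its reads of epithelial, goblet, leukocyte and cytokine genes. The pan-epithelial genes summed to 2781, 2960 and 4195 CPM in the 3 embryos, and the 8 cytokines known to alter tight junctions to 4.09, 3.06 and 11.3 CPM. Goblet markers summed to 1698, 1623 and 3123 CPM and leukocyte markers to 224, 226 and 388. Whether these contribute to its claudin levels was not tested.

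**Figure D3:**
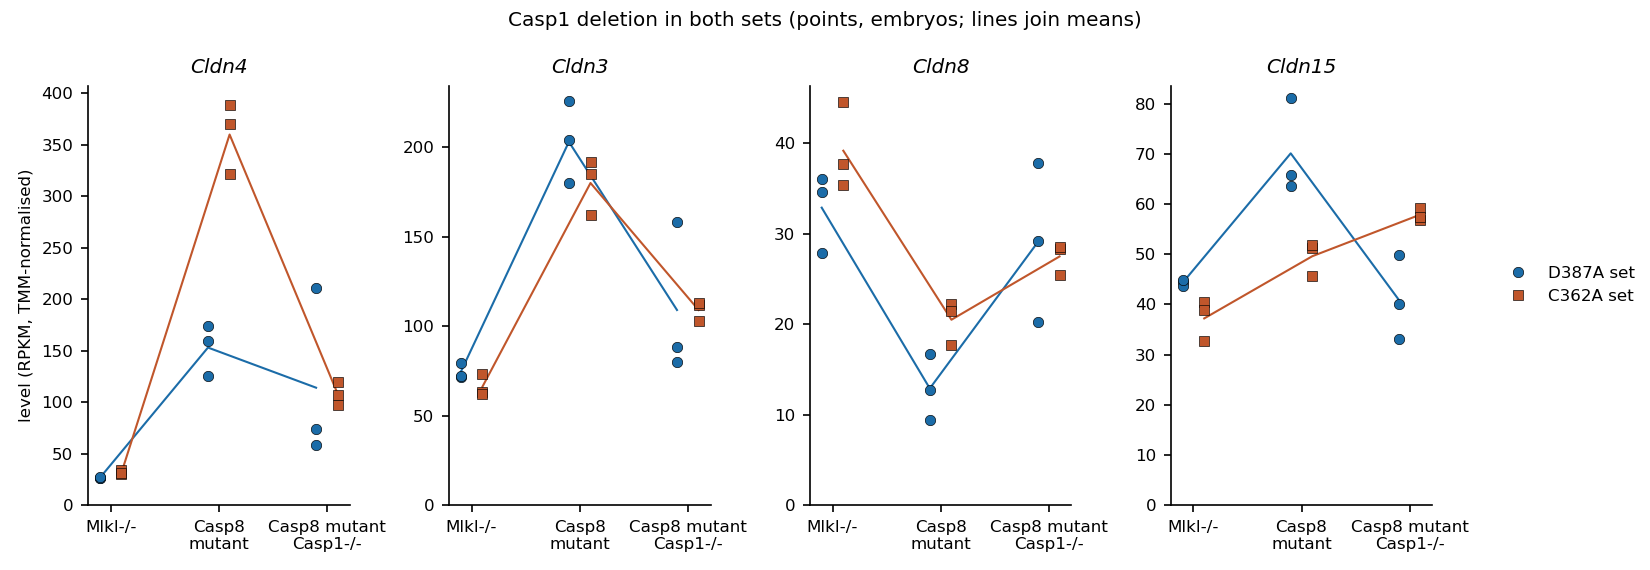
Cldn4, Cldn3, Cldn8 and Cldn15 in Mlkl-/- embryos, in embryos with mutant caspase-8 (1xDA Cflar Mlkl or C362A Mlkl) and in those with Casp1 deleted as well. The y axes are RPKM on TMM-scaled libraries, points are embryos, lines join group means; in the D387A set the third Casp1-deleted embryo lies at 211 RPKM of Cldn4 against 73.6 and 58.8 in the others.

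The effect of Casp1 loss was compared between the sets by the difference of the log2 fold changes. Cldn4 was the 1 member called, at 1.34 ± 0.38 (SE, adjusted p = 0.016), where 5.73% of genes were called, and 3 of 10 members passed the p threshold at any fold (16.9% of all genes). That call was lost without the third Casp1-deleted 1xDA embryo (0.56, adjusted p = 0.0538). Cldn15 differed by −0.98 ± 0.19 (adjusted p = 0.0011): it was at 33, 40 and 49.8 RPKM with Casp1 loss in the D387A set, below all 3 1xDA Cflar Mlkl embryos, and at 56.9, 59.2 and 57.4 in the C362A set, above all 3 C362A Mlkl embryos. Without the third Casp1-deleted embryo the Cldn15 difference was −1.14 (adjusted p = 9.96e-05) and was called, where 1168 genes were called higher and 448 lower. Cldn2 differed by −0.49 ± 0.16 (adjusted p = 0.0335), and without that embryo by −0.46 (adjusted p = 0.0504). These groups differ in Cflar as well as in the mutation.

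Further deletion of Ifnar1, the receptor chain for type I interferon, left no member past both thresholds in edgeR or DESeq2 and 1 in limma-voom, where 5.31% of genes were called by edgeR. An unadjusted p under 0.05 was reached by 8 of 10 members and 41.7% of all genes. In 1xDA Cflar Mlkl Casp1 Ifnar1 embryos Cldn4 was at 176, 224 and 270 RPKM and Cldn8 at 13.3, 15.4 and 15.3. Against the embryos that lacked Casp1 but kept Ifnar1, the log2 fold changes were 0.97 ± 0.32 for Cldn4 (adjusted p = 0.0285) and −0.99 ± 0.21 for Cldn8 (adjusted p = 0.00269). Without the third Casp1-deleted embryo both were called (1.75, adjusted p = 2.37e-07, and −1.19, adjusted p = 7.85e-05), where 9.31% of genes were. Against Mlkl-/- embryos 3 members were called where 12.4% of genes were: Cldn4 rose by 3.08 ± 0.34, Cldn3 rose by 1.15 ± 0.20 and Cldn8 fell by 1.16 on the log2 scale (SE 0.21). At any fold all 10 members had an adjusted p under 0.05 in that comparison (48.3% of all genes), and none of the 10 overlapped with Mlkl-/- embryos (56.9% of all genes did not). The pancreatic acinar markers summed to 52.7, 127 and 84.6 CPM in these embryos against 2.77, 3.37 and 4.2 in the embryos with Ifnar1, and 4 of 4 tested rose. Of 6 goblet markers 4 rose, from 1623 to 3123 CPM to 4241 to 5416, and the cytokines Tnf, Il1b and Il6 rose, with the list at 14.3 to 17.2 CPM against 3.06 to 11.3. Of 9 enterocyte markers 1 rose (Treh) and 2 fell (Lct and Fabp1). The part of these lists in the result was not tested.

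Further deletion of Fadd, the adaptor that recruits caspase-8, left no member called by edgeR, DESeq2 or limma-voom, where 3.44% of genes were called by edgeR, and 4 of 10 members had an unadjusted p under 0.05 (31.6% of all genes). Cldn4 was at 64.1, 66.8 and 56.3 RPKM without Fadd. The log2 fold change against embryos that kept Fadd was −0.87 ± 0.32 (adjusted p = 0.0645), and without the third of these embryos it was −0.09 (adjusted p = 0.738). With Fadd loss 3 of 9 enterocyte markers rose (Anpep, Fabp2 and Slc5a1), from a sum of 19712 to 26946 CPM to 40270 to 43714, and of 3 cytokines tested Tnf and Il1b fell. Their part in the Cldn4 level was not tested. Against Mlkl-/- embryos Cldn4 still rose by 1.24 ± 0.32 on the log2 scale (adjusted p = 0.0125), the 1 member called where 3.78% of genes were. Cldn3 at 90.7, 99.8 and 60.5 RPKM and Cldn8 at 40.9, 39.6 and 30.5 overlapped with Mlkl-/- embryos.

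Loss of Cflar from C362A embryos left no member past both thresholds in edgeR, DESeq2 or limma-voom, where 6.06% of genes were called by edgeR, and 4 (Cldn4, Cldn8, Cldn15 and Cldn23) had an unadjusted p under 0.05 (32.4% of all genes). The Cldn4 level in C362A Cflar Mlkl embryos, given above, lay below that of every C362A Mlkl embryo, a log2 fold change of −0.80 ± 0.14 (SE, adjusted p = 0.00175). Cldn15 lay above, by 0.61 ± 0.13 (adjusted p = 0.00534). In the same comparison 7 of 9 enterocyte markers fell, from a sum of 15066 to 18926 CPM to 2947 to 8123. Of 5 crypt and progenitor markers Olfm4 and Lgr5 rose, of 6 leukocyte markers Csf1r fell, and of 6 cytokines tested Il6 rose and Ifng and Il13 fell. Smooth muscle markers summed to 6077 to 7155 CPM against 3229 to 4499 in embryos that kept Cflar. The part of all these markers in the claudin levels was not tested.

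The claudins were then set against each other within an embryo. The summed level of the 7 claudins was 726, 687 and 655 RPKM in Mlkl-/- embryos of the D387A set and 958, 939 and 887 in 1xDA Cflar Mlkl embryos. Cldn4 made up 3.84% ± 0.29 (SD, n = 3) of that sum in the former and 16.5% ± 2.8 in the latter. Cldn3 went from 10.8% ± 0.31 to 21.9% ± 2.0, Cldn7 from 51.3% ± 0.68 to 36.2% ± 0.31, Cldn2 from 21.2% ± 0.36 to 15.6% ± 0.66 and Cldn8 from 4.76% ± 0.49 to 1.38% ± 0.34. The embryos of the 2 groups did not overlap in any of these shares, and an exact permutation test of 3 against 3 embryos cannot give a two-sided p below 0.1. A share of a sum can shrink because other parts of the sum grow. The levels of Cldn7 and Cldn2, given above, overlapped between these 2 groups. In the C362A set Cldn4 made up 4.65% of the sum in Mlkl-/- embryos, 30.4% ± 0.71 in C362A Mlkl embryos, 10.6% with Casp1 loss and 20.3% in C362A Cflar Mlkl embryos. The Cldn7 share there was 49.2% in Mlkl-/- and 36.9% in C362A Mlkl embryos, although its level was higher in the latter.

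**Figure D4:**
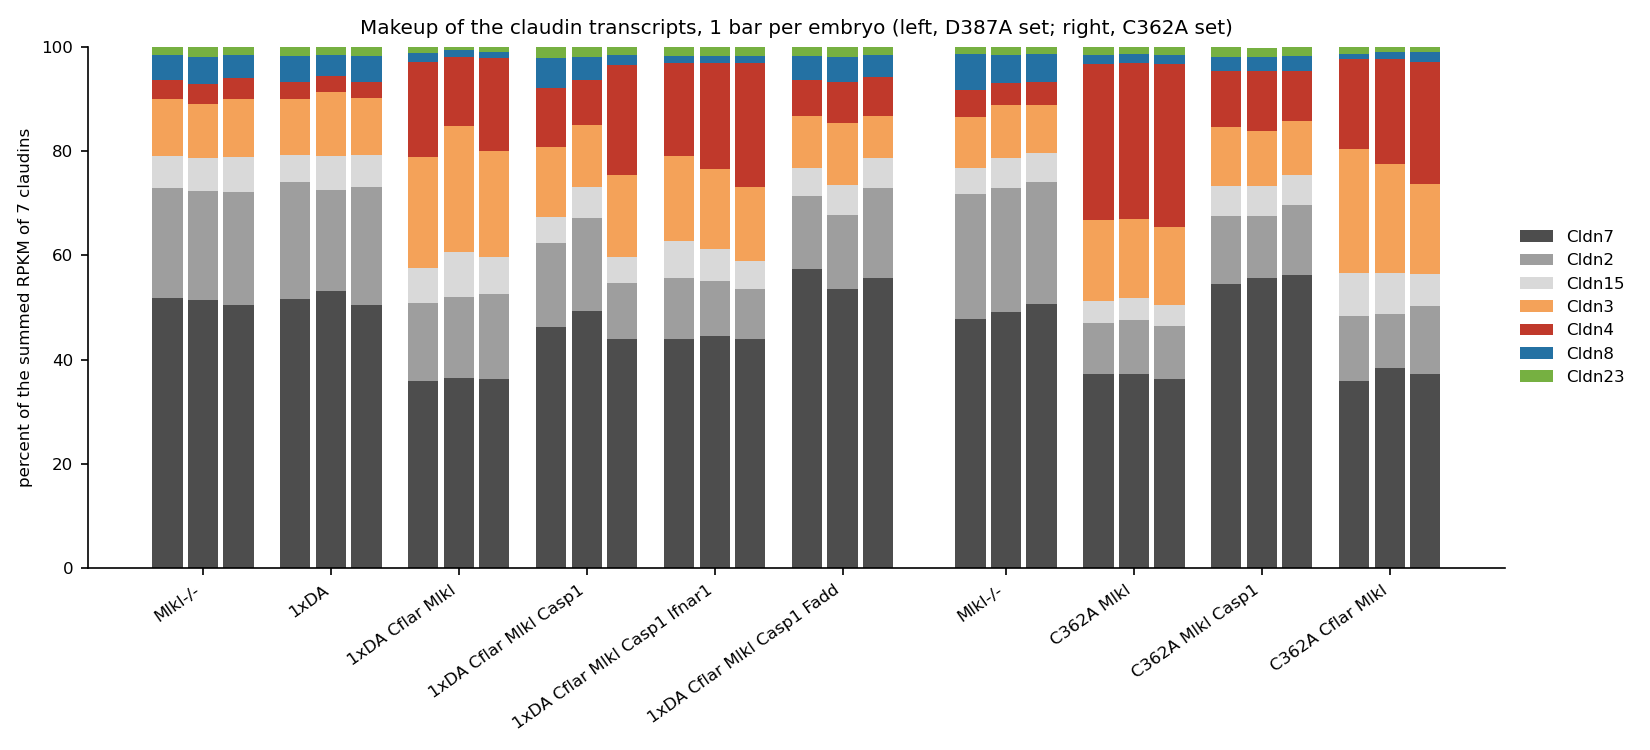
Share of each claudin in the summed RPKM of the 7 claudins, by group. Each bar is 1 embryo on an axis from 0 to 100%. The mean Cldn4 share grows from 3.84% to 16.5% in 1xDA Cflar Mlkl embryos and from 4.65% to 30.4% in C362A Mlkl embryos. The mean Cldn7 share shrinks in both, and the Cldn7 level fell in neither.

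Since whole intestine was measured, fewer cells of a type and less RNA per cell cannot be told apart. As a second scale, the members were therefore expressed relative to the 10 pan-epithelial genes. On it, 1xDA Cflar Mlkl embryos kept the same 3 called members against Mlkl-/- embryos: Cldn4 (2.12), Cldn3 (1.03) and Cldn8 (−1.77 on the log2 scale), where 26.7% of genes were called. In 1xDA Cflar Mlkl Casp1 embryos Cldn4 was again the 1 member called (1.98), where 4.04% were. C362A Mlkl embryos had 3 called members, Cldn4 (3.20), Cldn3 (1.12) and now Cldn8 (−1.25), where 20.8% were, and C362A Cflar Mlkl embryos had 3, Cldn4 (2.42), Cldn3 (1.38) and Cldn8 (−1.70), where 25.8% were. The Cldn15 call in C362A Cflar Mlkl embryos was lost on this scale (0.72, adjusted p = 0.000526) and was made with Epcam alone (1.03). At any fold, Ocln passed the p threshold on this scale in 1xDA Cflar Mlkl (−0.46, adjusted p = 0.00314), C362A Mlkl (−0.32, adjusted p = 0.0418) and C362A Cflar Mlkl embryos (−0.34, adjusted p = 0.0261). Cldn2 (−0.44, adjusted p = 0.00226) and Cldn7 (−0.49, adjusted p = 0.000163) did so in 1xDA Cflar Mlkl embryos, where Tjp1, Cdh1 and Cldn15 no longer did (adjusted p = 0.178, 0.361 and 0.0532) and Cldn23 was at −0.80 (adjusted p = 0.000214). Those results in 1xDA Cflar Mlkl embryos depend on the genes of the scale, of which Krt19, Esrp1 and Krt8 were themselves called higher in 1xDA Cflar Mlkl embryos. With Epcam alone, Ocln (0.13), Cldn2 (0.15) and Cldn7 (0.10) changed sign there and lost the p threshold, as did Cldn23 without a change of sign (−0.22, adjusted p = 0.239). Tjp1 (0.77, adjusted p = 0.000133), Cdh1 (0.68, adjusted p = 1.85e-05) and Cldn15 (0.83, adjusted p = 1.22e-05) passed it, while Cldn4 (2.69), Cldn3 (1.62) and Cldn8 (−1.17) stayed called. In the C362A set Ocln was then at −0.51 (adjusted p = 0.00342) in C362A Mlkl and −0.07 (adjusted p = 0.699) in C362A Cflar Mlkl embryos. Cldn2 was lower on both scales in C362A Mlkl embryos (−0.75, adjusted p = 0.000393, and −0.93, adjusted p = 2.35e-05, with Epcam alone) and in C362A Cflar Mlkl embryos (−0.68, adjusted p = 0.000683, and −0.40, adjusted p = 0.0252). This scale moved the median log2 fold change of all genes to −0.42, −0.03, −0.29 and −0.26 in the 4 comparisons. The first of the Cldn3 calls was lost without the second 1xDA Cflar Mlkl embryo (0.99), and that in C362A Mlkl embryos was lost with Epcam alone as the scale (0.94).

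Markers of epithelial cell types differed between the groups as well. The 9 enterocyte markers summed to 42315, 43093 and 37884 CPM in Mlkl-/- embryos of the D387A set and to 3467, 2039 and 2625 in 1xDA Cflar Mlkl embryos, and 8 of them were called lower. They summed to 33238 to 51511 CPM in Mlkl-/- embryos of the C362A set, to 15066 to 18926 in C362A Mlkl embryos and to 2947 to 8123 in C362A Cflar Mlkl embryos. Goblet markers summed to 1022 to 2225 CPM in Mlkl-/- embryos and 2783 to 3866 in 1xDA Cflar Mlkl embryos, and crypt and progenitor markers to 288 to 312 and 625 to 827. Goblet markers of the C362A set summed to 1804 to 2349 CPM in Mlkl-/- embryos, 3790 to 3952 in C362A Mlkl embryos and 3700 to 4068 in C362A Cflar Mlkl embryos, with 3 of 6 called higher in each mutant group. Crypt and progenitor markers there summed to 241 to 336, 353 to 388 and 492 to 820 CPM, with 1 of 5 (Axin2) and 2 of 5 (Olfm4 and Ascl2) called higher. The cytokines Tnf, Il1b and Il6 were called higher in 1xDA Cflar Mlkl embryos, 3 of the 3 tested of the 8 on the list, and the summed list went from 0.5 to 1.47 CPM to 33.9 to 52.7, with Il17a at 0 reads in both groups. In the C362A set it was 1.51 to 3.16 CPM in Mlkl-/- embryos, 72.4 to 79.5 in C362A Mlkl embryos and 49.1 to 122 in C362A Cflar Mlkl embryos. The part of these shifts in the claudin levels was not tested. Leukocyte markers summed to 287 to 316 CPM in Mlkl-/- embryos of the D387A set and 139 to 276 in 1xDA Cflar Mlkl embryos, but 4 of the 6 tested rose there (S100a8, S100a9, Itgam and Adgre1) and 1 fell (Csf1r). They summed to 280 to 349 CPM in Mlkl-/- and 575 to 674 in C362A Mlkl embryos of the C362A set, where 4 of 6 rose (S100a9, S100a8, Itgam and Ptprc). In C362A Cflar Mlkl embryos they summed to 317 to 365 CPM, and a sum can hide opposite moves of its genes. Smooth muscle markers summed to 5133 to 5574 CPM in Mlkl-/- and 7063 to 8845 in 1xDA Cflar Mlkl embryos. In the C362A set this list was at 2595 to 4240 CPM in Mlkl-/- and 3229 to 4499 in C362A Mlkl embryos. It reached 6077 to 7155 CPM in C362A Cflar Mlkl embryos. The part of these lists in the claudin levels was not tested.

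Among other genes of the junctions, the remaining claudins moved in both directions. Of 17 others on the list, 16 were matched to the files and 10 were tested in each set. In 1xDA Cflar Mlkl embryos 1 rose (Cldn9, at a mean of 0.741 against 0.329 RPKM) and 3 fell, with a median log2 fold change of −0.12. Cldn19 fell by 6.69 on the log2 scale (SE 0.29, adjusted p = 1.06e-11), from a mean of 8.02 to 0.0754 RPKM, with 11, 2 and 10 reads in the latter embryos, and it also fell in C362A Mlkl (by 2.40) and C362A Cflar Mlkl embryos (by 5.66). With Casp1 loss it rose in both sets, by 5.21 ± 0.30 and 1.33 ± 0.29. Claudin-19 is best known from the kidney tubule, the eye and nerve sheaths. Cldn1, a sealing claudin of skin and other epithelia, fell by 1.72, 1.42 and 2.12, and Cldn14 by 1.40, 1.80 and 1.19, in the same order of groups. Cldn18, a claudin of stomach and lung, was at 0 to 0.00826 RPKM in Mlkl-/- embryos of the C362A set and at 0.735 to 1.58 in C362A Mlkl embryos (1, 0 and 0 reads against 160, 92 and 195). Of the 5 stomach markers tested in that comparison, itself included, 4 rose (Cldn18, Gkn2, Tff1 and Gkn1) and Pga5 fell, with sums of 5.55 to 7.78 and 6.7 to 17.5 CPM. The part of stomach RNA in the Cldn18 reads was not tested. In the D387A set the third Mlkl-/- embryo had 230 CPM of them against 4.79 and 5.99 in the others.

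Of 23 other tight junction genes, 1 rose and 1 fell in 1xDA Cflar Mlkl embryos, 2 rose and 1 fell in C362A Mlkl embryos, and 2 rose and 3 fell in C362A Cflar Mlkl embryos. Ildr1 (angulin-2), which recruits tricellulin to three-cell corners, rose in all 3 comparisons, by 1.54 ± 0.23, 1.48 ± 0.11 and 1.69 ± 0.11. Prkcz, the polarity kinase atypical PKC zeta, fell in all 3, by 1.64, 1.46 and 1.91 on the log2 scale. F11r, the junctional adhesion molecule A, rose from a mean of 55.7 to 165 RPKM in C362A Mlkl embryos (1.57 ± 0.13, adjusted p = 2.01e-07) and had a log2 fold change of 0.98 ± 0.21 in 1xDA Cflar Mlkl embryos. The medians of the list were −0.05, −0.04 and −0.23.

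Of 13 other adherens junction genes, edgeR called none in 1xDA Cflar Mlkl or C362A Cflar Mlkl embryos, with 7 at an unadjusted p under 0.05 in each, and 1 in C362A Mlkl embryos, where Nectin4, a nectin adhesion receptor, rose by 1.23 ± 0.24 on the log2 scale (adjusted p = 0.000799). The shares of all genes at that unadjusted p were 63.2% in 1xDA Cflar Mlkl and 58% in C362A Cflar Mlkl embryos. Of 8 desmosome genes, the cadherin Dsg2 rose (1.27 ± 0.15) and Perp, a desmosomal p53 target, fell (−1.29 ± 0.10) in 1xDA Cflar Mlkl embryos. Dsg2 (1.07 ± 0.18) and the plakin Ppl (1.10 ± 0.18) rose in C362A Mlkl embryos, and Perp fell in C362A Cflar Mlkl embryos (−1.19 ± 0.14).

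**Figure D5:**
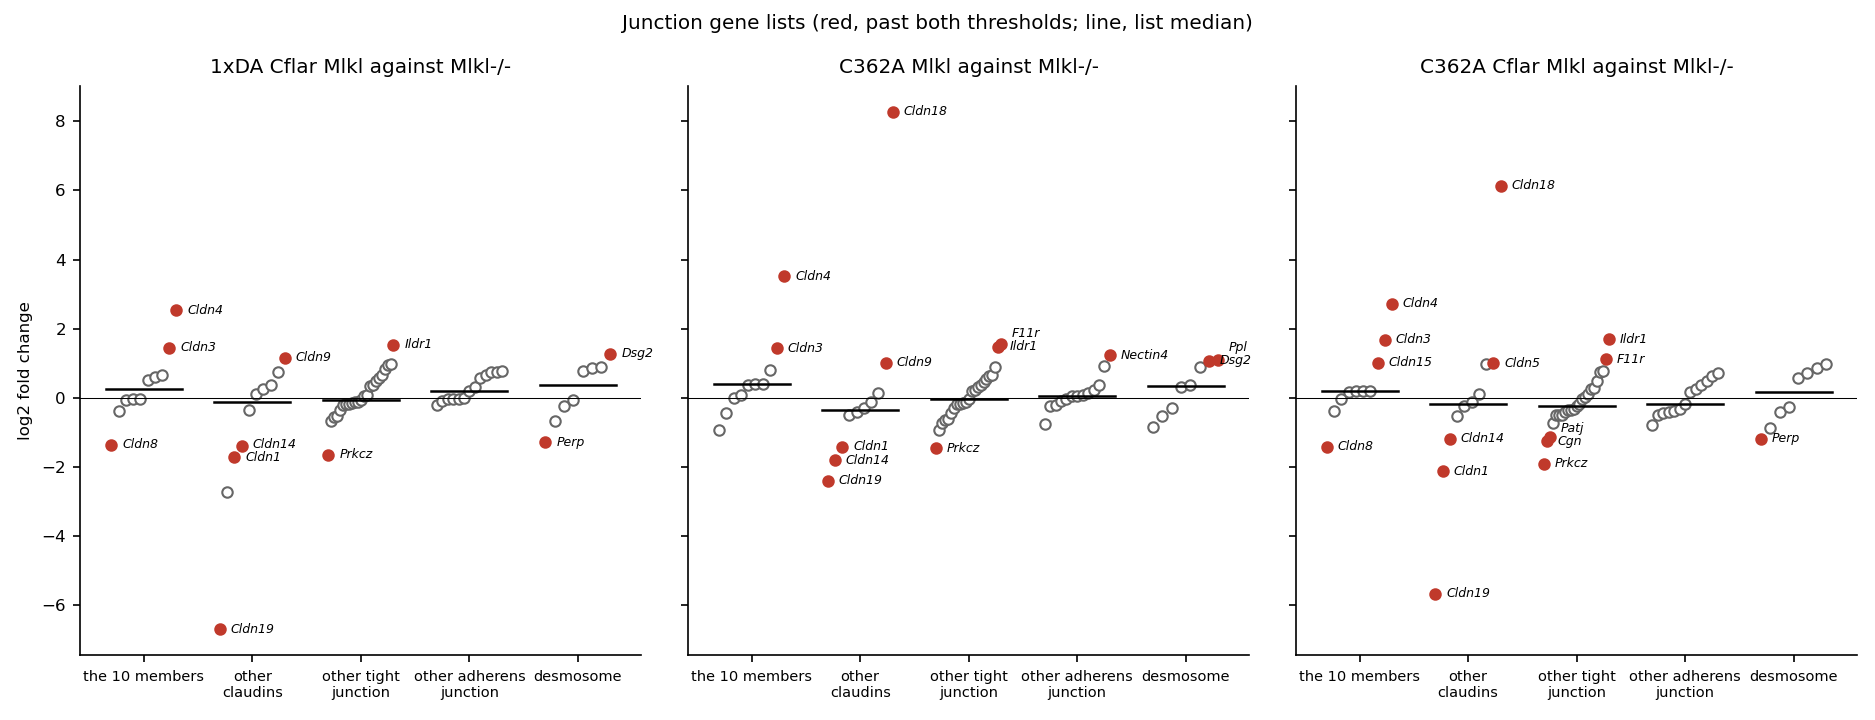
Log2 fold changes of the members and of 4 lists of other junction genes against Mlkl-/- embryos in 3 comparisons. The y axis is the log2 fold change, each point is a gene, filled points passed both thresholds and lines are list medians; most points of the tight junction, adherens junction and desmosome lists lie between −1 and 1.

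The genes whose level followed each member most closely were sought among 14078 genes by Pearson's r of log2 CPM over the 18 libraries of the D387A set, and r over the 12 C362A libraries was computed as well. The libraries share genotypes and depth, so these are descriptions. Cldn4 was closest to Icam1 (r = 0.981, and 0.98 in the C362A set), Birc3 (0.98 and 0.908) and Nfkbie (0.98 and 0.939). Cldn3 was closest to Il17rc (0.975 and 0.945), Cd14 (0.968 and 0.972) and Pglyrp1 (0.968 and 0.969). Cldn7 was closest to Epcam (0.964 and 0.954), and Cldn8 to Acsl3 (0.968 and 0.889). For Cldn15 and Cdh1 the gene Slc37a1 was among the closest 3 (0.94 and 0.919, and 0.729 and 0.478 in the C362A set). Cldn23 was closest to Gsdme (0.924 and 0.728), Cldn2 to Podn (0.925 and 0.417), Ocln to Pip4p2 (0.903 and 0.667) and Tjp1 to Gm15790 (0.942 and 0.467).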

How the data were processed

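RNA was measured in 30 E18.5 intestines, and cultured fibroblast libraries of the same series were not used here. As the authors describe, reads were aligned to GRCm38 with GSNAP and uniquely mapped reads were counted per gene; the deposited files hold raw counts per gene with exonic widths and the authors' RPKM, which was not used. The sources disagree on library kit and sequencer, and the strand of counting is not given in the sources used here. Genes were fitted in R 4.3.3 with edgeR 4.0.16 (TMM, quasi-likelihood, filterByExpr with a minimum of 10 reads and a total of 15), 1 model per set, with 18360 genes tested in the D387A set and 19408 in the C362A set. RPKM was recomputed from the counts on TMM-scaled libraries. Effects were compared between sets in 1 fit of all 30 libraries (19643 genes). For the scale per epithelial RNA, the library size was replaced by the geometric mean count of 10 pan-epithelial genes. DESeq2 1.42.0, limma-voom (limma 3.58.1), other scalings, filters and prior counts, a replicate block and leaving out each library were the alternatives. The scripts were tested on simulated counts. Replicates differed from each other by more than sampling noise in all 30 pairs.

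The members, gene lists and tests were chosen with earlier results of these data known. Named besides the members are the deleted genes, up to 3 called genes with the largest change from each list in the 1xDA Cflar Mlkl and C362A Mlkl comparisons, and the 3 genes most alike to a member. Other genes were named after their values were seen, where a count of 5 or fewer needed names. Gene positions are from GENCODE M21, and promoters from RefSeq.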

Additional observations from a re-analysis of the deposited data

Results flagged for a closer look

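For 4 member genes an effect differed between the D387A and C362A sets by the test of the difference itself at any fold (edgeR, adjusted over 19643 genes). That was 1 of 10 members for the mutant effect, against 18.1% of all genes, and 3 of 10 for Casp1 loss, against 16.9%. The change in the caspase-8 mutants against Mlkl-/- embryos was lower for Cldn23 in 1xDA Cflar Mlkl than in C362A Mlkl embryos, by −1.19 on the log2 scale (adjusted p = 0.000636). It was lower than 0 in 1 set and above 0 in the other, and these groups also differ at Cflar. The change with Casp1 loss differed, D387A set minus C362A set, by 1.34 for Cldn4 (adjusted p = 0.016), by −0.98 for Cldn15 (adjusted p = 0.0011) and by −0.49 for Cldn2 (adjusted p = 0.0335). Without the third 1xDA Cflar Mlkl Casp1 embryo these were 0.56 (adjusted p = 0.0538), −1.14 (9.96e-05) and −0.46 (0.0504).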

How the results depend on the processing

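Of 144 recounts of the called members under other tools, scalings, filters, prior counts or the replicate block, 139 stayed within 1.5 times the reported count. With library totals as the scale, Casp1 loss in the D387A set gave 2 called members rather than 1, Ifnar1 loss 1 rather than 0 and Fadd loss 1 rather than 0. Ifnar1 loss also gave 1 with limma-voom and 1 with the replicate block. Leaving out 1 library at a time left 113 of 126 counts so. The count ranged from 0 to 3 for Casp1 loss in the D387A set, from 0 to 2 for Ifnar1 loss, from 0 to 1 for Fadd loss, from 1 to 2 for C362A Mlkl Casp1 embryos and from 1 to 2 for the difference of Casp1 loss between sets. The members behind the library-total counts were Cldn3 with Casp1 loss, Cldn8 with Ifnar1 loss (−1.10) and Cldn4 with Fadd loss (−1.05). Cldn4 was also called for Fadd loss without the first (−1.11) or second (−1.19) embryo that kept Fadd. For Ifnar1 loss the count was 1 without any 1 of the 3 Ifnar1-deleted embryos. Cldn23 was called in C362A Mlkl Casp1 embryos (1.02) without the second Mlkl-/- embryo, and Cldn15 joined the difference of Casp1 loss without the first or the third 1xDA Cflar Mlkl embryo or the third C362A Mlkl embryo. Without the third 1xDA Cflar Mlkl Casp1 embryo Cldn15 was called for that difference (−1.14) and Cldn4 was not (0.56). Of 2700 recomputed log2 fold changes of members 77 changed sign, and 0 of these were called under either setting. In 3 of them (Cldn2, Cldn7 and Ocln on the epithelial scale in 1xDA Cflar Mlkl embryos, with Epcam alone) the reported value had an adjusted p under 0.05, and the largest reported value that changed sign was 0.49 in size. The calls of Cldn3, Cldn4 and Cldn8 in 1xDA Cflar Mlkl embryos held under all 6 omissions and all 10 other settings, with ranges of 1.37 to 1.66, 2.43 to 2.75 and −1.57 to −1.13. Library totals moved the median log2 fold change of all genes to between −0.30 and 0.30 in the 13 comparisons within a set. The share of called genes that were higher went from 42.3% to 58.2% in 1xDA Cflar Mlkl, from 49.7% to 64.4% in 1xDA Cflar Mlkl Casp1, from 54.5% to 71.5% in C362A Cflar Mlkl and from 64.6% to 48.8% in C362A Mlkl Casp1 embryos. It went from 49.5% to 25.8% for Casp1 loss in the C362A set, from 61.8% to 50% for Ifnar1 loss, from 74.5% to 52.1% for Fadd loss and from 23.9% to 40.8% for Cflar loss. With Epcam alone as the epithelial scale it went from 18.3% to 54.8%, 46.1% to 60.2%, 36.2% to 25.1% and 33.9% to 54.2% in 1xDA Cflar Mlkl, 1xDA Cflar Mlkl Casp1, C362A Mlkl and C362A Cflar Mlkl embryos. The cause of these moves was not tested. DESeq2 was not run for the epithelial scale or the differences between sets. Replicate numbers did not pair the embryos: same-numbered embryos of different genotypes had correlations of their deviations from −0.431 to 0.423 in the D387A set and from −0.524 to 0.401 in the C362A set. Beyond the Ifnar1 result, the replicate block changed no other count of called members.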
